A study of Arabidopsis thaliana with 16 samples.

Results

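SCN1 (SUPERCENTIPEDE1, AT3G07880), ROPGEF11 (AT1G52240) and ROPGEF12 (AT1G79860) encode regulators of ROP GTPases, molecular switches of plant cells, and they were chosen by name. Each is measured by 1 probe set that carries no other named gene, and together they are 3 of the 15407 genes that could be named on the Arabidopsis ATH1 array. A ROP is active when it binds GTP and sits at the plasma membrane, and in root hairs and pollen tubes the active protein marks the place where the tip grows. RopGEFs, the class of ROPGEF11 and ROPGEF12, load ROPs with GTP, RopGAPs return them to the GDP form, and RhoGDIs, the class of SCN1, take the inactive protein off the membrane. Root hairs of scn1 mutants start at several places on one cell, so SCN1 is known for keeping growth to a single site.

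Transcript levels were compared in 16 arrays, with 2 biological replicates of each of 8 sample types, all of the Columbia ecotype and with no treatment. Root hairs were frozen on cellophane and brushed free of the rest of the plant after 4 or 5 days of growth, and hydrated pollen grains had been sorted as cells. The other sample types were seedlings, which contain root hairs, flowers, which contain pollen, and siliques, ovules, unpollinated pistils and leaves. Root hairs were profiled for this study with a labelling protocol of several amplification rounds, pollen, seedlings, flowers, siliques and leaves came from an earlier study, and ovules and pistils from another. Root hairs are therefore the only sample type of their study. Effects of that study, its labelling included, cannot be told apart from that of the cell type.

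The values are array intensities on a linear scale. An intensity of 216 was taken as the level of detection, 3 times the pseudocount that was added before taking log2 values. The root hair arrays had 30.6% and 31.1% of their probe sets above it, the pollen arrays 18.3% and 18.6%, and the other arrays 48.2% to 54.3%. Replicates correlated at r of 0.990 to 0.998. The root hair markers EXPA7, EXPA18, COBL9 and LRX1 had mean intensities of 534 to 10374 in root hairs, against 53.7 to 161 in pollen. The pollen markers AT59, PRK4, SYP131 and ACA9 had 5187 to 15499 in pollen. In root hairs AT59 was at 36.4 and PRK4 at 52.2, below detection, whereas SYP131 was at 606 and ACA9 at 651. All 3 green tissue markers lay between 40.3 and 91.5 in root hairs and pollen. Of the inner root markers, SUC2 had 504 in pollen, and CASP1 was at 188 and 344 on the root hair arrays, where SUC2 and CO2 were below detection. The marker levels fit both labels apart from SYP131, ACA9, SUC2 and CASP1, whose part in the results below was not tested.

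The primer pair of ROPGEF11 from the study's RT-PCR is shown because it bounds the stretch of this transcript that was amplified there. That RT-PCR used cDNA made from amplified cRNA, and its outcome is not part of the results here. Each primer has 21 bases, and no base is set apart by capitals.
ROPGEF11 forward: tgcgagacaaggaacgatgag
ROPGEF11 reverse: ccaatatcgcaagtcctacat

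SCN1 was present in every sample type and most abundant in pollen. On the root hair arrays it had intensities of 1640 and 1927, and on the pollen arrays of 7607 and 8092. The 8 arrays of leaves, pistils, ovules and siliques, the 4 tissues with neither root hairs nor pollen, lay between 581 and 1342 with a median of 857. Seedlings had 742 and 808, and flowers had 1249 and 1242. The root hair and the pollen arrays did not overlap with any array of another sample type, and all 16 arrays lay above detection.

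ROPGEF11 was abundant in pollen and faint in root hairs. Its intensities were 301 and 266 on the root hair arrays and 2954 and 3051 on the pollen arrays. Flowers had 208 and 207, just under the detection level. On the 10 arrays of seedlings, siliques, ovules, pistils and leaves it lay between 14.0 and 16.8, so only the 4 arrays of root hairs and pollen were above detection. The root hair arrays stood 1.31-fold above the detection level on average and fell below it when the level was set at 5 times the pseudocount.

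ROPGEF12 was above detection in root hairs, pollen and flowers. It had intensities of 617 and 715 on the root hair arrays and of 3294 and 3586 on the pollen arrays. Flowers had 370 and 378, so that 6 arrays in all were above detection. The 10 arrays of the other sample types lay between 24.8 and 43.9.

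**Figure D1:**
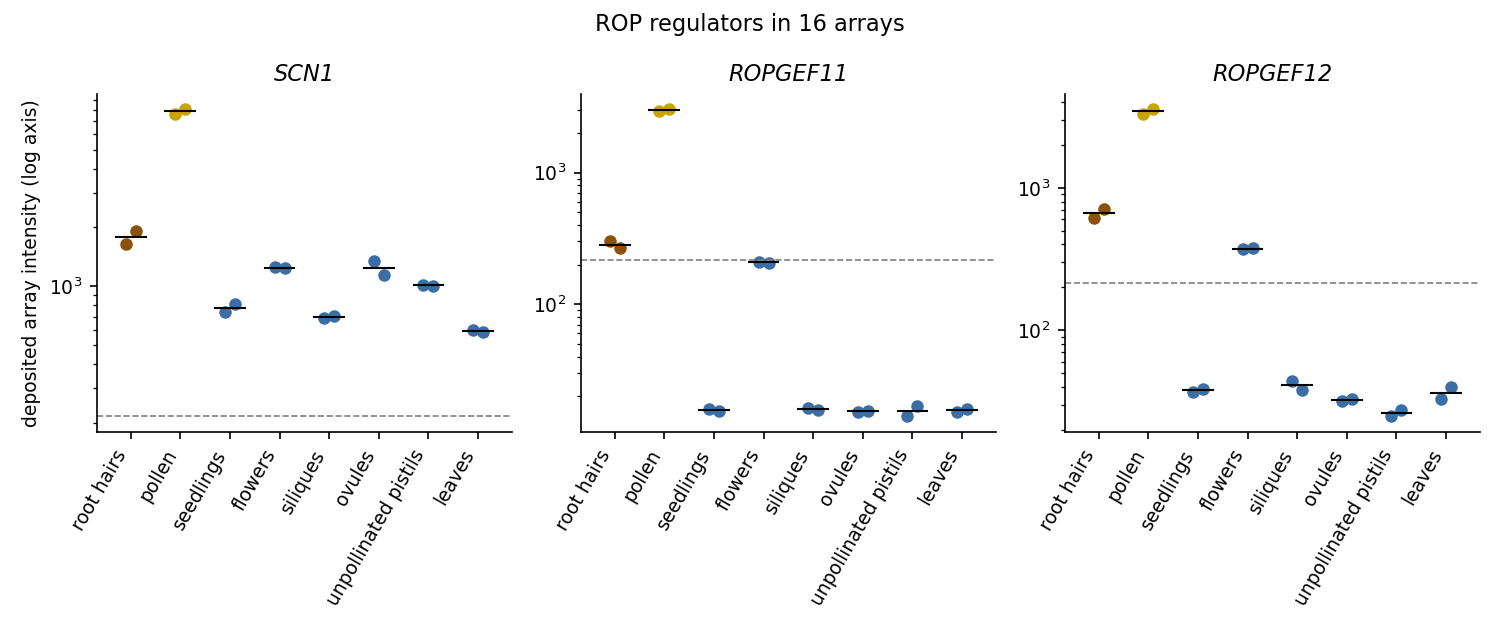
Deposited intensities (log axis) of SCN1, ROPGEF11 and ROPGEF12 on the 2 arrays (points) of each of 8 sample types, with their mean (short line) and the detection level of 216 (dashed). SCN1 lies above the dashed line on all 16 arrays, ROPGEF12 on 6 and ROPGEF11 on 4; each panel has its own scale.

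Against the 4 tissues, SCN1 was higher in root hairs and higher still in pollen. It averaged 1784 ± 202 (SD, n = 2) in root hairs, 2.01-fold the mean of 886 over the 4 tissues, a log2 difference of 1.00 (SE 0.07, adjusted p = 2.94e-09, limma with Benjamini-Hochberg adjustment), where 19.2% of all probe sets were higher and 69.0% lower. In pollen it averaged 7850 ± 343, 8.86-fold the same mean, a log2 difference of 3.10 (SE 0.07, adjusted p = 2.39e-15, limma), where 21.2% were higher and 64.5% lower. Differences on the log2 scale are those of the intensity plus a pseudocount of 71.9. The excess in root hairs depended on the tissue it was set against, with log2 differences of 1.49 from leaves, 1.27 from siliques, 0.77 from pistils and 0.49 from ovules. The smallest of these, from ovules, had an adjusted p of 0.00014 (limma). Over all 22746 probe sets the median difference from the 4 tissues came to -0.50 in root hairs and -0.60 in pollen. The difference of SCN1 was larger than that of 91.6% of them in root hairs and of 97.7% in pollen. In pollen the log2 difference of SCN1 was 3.47 against leaves and siliques alone, which come from the same study as pollen.

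Both RopGEFs lay above the 4 tissues as well, but the study had picked them for this contrast on these arrays, so their differences are a description and no independent evidence. ROPGEF11 averaged 283 ± 24.7 (SD, n = 2) in root hairs, 3002 ± 68.8 in pollen and 15.6 over the 4 tissues. Since all 8 arrays of the 4 tissues were below detection, the ratio is bounded only from below, at least 1.31-fold in root hairs and at least 13.9-fold in pollen. ROPGEF12 averaged 666 ± 69.0 in root hairs, 3440 ± 207 in pollen and 33.9 over the 4 tissues, and its bounds against the same tissues were at least 3.09-fold and at least 15.9-fold. The bounds set the mean of the brighter sample type against the detection level. The log2 differences were 2.02 in root hairs and 5.13 in pollen for ROPGEF11, and 2.80 and 5.05 for ROPGEF12. All 3 genes were thus higher than each of the 4 tissues in both cell types, which held for 12.5% of all probe sets in root hairs and for 13.9% in pollen.

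Root hairs and pollen were then set against each other, which was not the contrast the RopGEFs were picked by, though it uses the same arrays. All 3 were lower in root hairs. SCN1 was 4.40-fold less abundant in root hairs than in pollen (log2 difference -2.10, SE 0.09, adjusted p = 1.01e-11, limma). ROPGEF12 was 5.16-fold less abundant (log2 difference -2.25, SE 0.08, adjusted p = 6.47e-13, limma), and ROPGEF11 10.6-fold (log2 difference -3.11, SE 0.06, adjusted p = 1.01e-15, limma). Of all probe sets, 42.6% were lower in root hairs than in pollen and 35.0% higher, with a median difference of -0.10, and 2.35% to 3.47% had a difference below those of the 3 genes. The root hair arrays were loaded with a fixed amount of labelled RNA, so their intensities are relative to the RNA of the sample. Levels per cell cannot be read from such bulk extracts.

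The fall was larger for ROPGEF11 than for the other two. The log2 ratio of ROPGEF11 over ROPGEF12 on the same array was -1.04 and -1.43 in root hairs and -0.16 and -0.23 in pollen, a mean gap of 1.04. ROPGEF11 over SCN1 gave -2.45 and -2.86 in root hairs and -1.36 and -1.41 in pollen. The ratio of ROPGEF12 over SCN1 was -1.41 and -1.43 in root hairs and -1.21 and -1.17 in pollen. In none of these ratios did the root hair arrays overlap with the pollen arrays. The gap for ROPGEF11 over either gene exceeded the spread between replicates (SD 0.28 and 0.29 in root hairs), while ROPGEF11 in root hairs was close to the detection level. These ratios carry no pseudocount. In the fitted differences ROPGEF11 fell by 0.86 more than ROPGEF12 on the log2 scale, and by 0.56 more with 4 times the pseudocount. ROPGEF12 and SCN1 were 0.15 apart, and -0.01 with the larger pseudocount, so that gap is not a stable one.

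Each cell type was also compared with the organ that contains it. In root hairs ROPGEF11 was 18.1-fold its level in whole seedlings by the measured means (log2 difference 2.02). It was at least 1.31-fold by the bound, since seedlings were below detection. ROPGEF12 was 17.6-fold its seedling level, at least 3.09-fold by the bound (2.75). The study had picked both RopGEFs for high levels on these root hair and pollen arrays. Their differences from seedlings and flowers are thus a description too, and no p is given for them in these comparisons. SCN1 differed from seedlings by 2.30-fold (1.13, adjusted p = 1.69e-08, limma). Of all probe sets 18.5% were higher in root hairs than in seedlings and 64.4% lower. Seedlings held 43.5% of the root hair level of SCN1 and 9.02% of that of COBL9. The other hair markers were below detection in seedlings, which bounds their share at up to 2.08% for EXPA18, 3.26% for EXPA7 and 40.4% for LRX1. The share of SCN1 was above that of COBL9 and above these bounds. For the RopGEFs, also below detection in seedlings, the bounds are up to 76.1% for ROPGEF11 and 32.4% for ROPGEF12, so they cannot be placed among the markers.

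In pollen, SCN1 was 6.30-fold its level in flowers (log2 difference 2.59, adjusted p = 6.53e-13, limma) and ROPGEF12 9.20-fold (2.98). ROPGEF11 was at least 13.9-fold (3.46). Of all probe sets 23.6% were higher in pollen than in flowers and 55.9% lower. Flowers held 15.9% of the pollen level of SCN1 and 10.9% of that of ROPGEF12, and for ROPGEF11, below detection in flowers, the measured share was 6.91% and its bound up to 7.19%. For the pollen markers the share was 15.1% for AT59, 11.1% for PRK4, 11.3% for SYP131 and 8.46% for ACA9. MGH3, a histone of the sperm cells, was below detection in flowers, with a bound of up to 14.7%. ROPGEF12 thus lay inside the range of the 4 pollen markers, ROPGEF11 just below it and SCN1 just above it. SCN1 had 1245 in flowers, but also 1245 in ovules and 1013 in unpollinated pistils, which hold no pollen. The pollen markers were at most 91.0 and 105 in ovules and pistils. How much of the SCN1 level in flowers is that of pollen was not tested. Siliques had 8.88% of the pollen level of SCN1, while both RopGEFs were below detection there, which allows a share of up to 7.19% for ROPGEF11 and 6.27% for ROPGEF12.

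**Figure D2:**
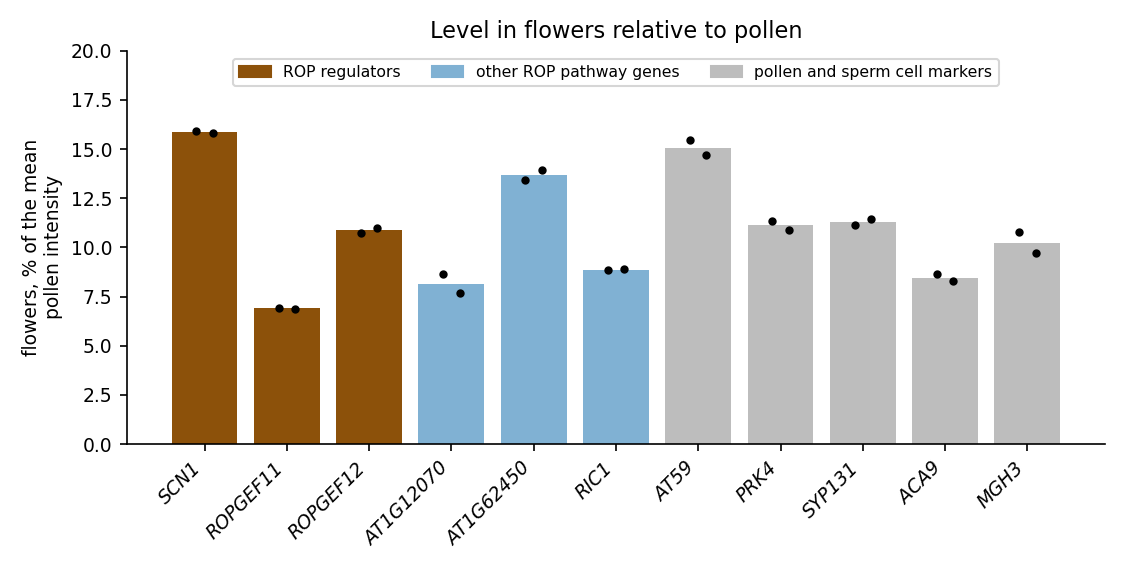
Intensity in flowers as a percentage of the mean pollen intensity of the same gene, for the 3 ROP regulators, 3 other ROP pathway genes and 5 pollen and sperm cell markers. Bars are means and points the 2 flower arrays; the bars run between 6.91% for ROPGEF11 and 15.9% for SCN1, and in flowers ROPGEF11, AT1G12070 and MGH3 are below detection.

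The order of the 8 sample types started alike for the 3 genes, with pollen highest, then root hairs, then flowers. Root hairs were above flowers by log2 differences of 0.49 for SCN1 (adjusted p = 0.000162, limma) and 0.72 for ROPGEF12. For ROPGEF11, which is below detection in flowers, the difference was 0.34. The differences of both RopGEFs are again a description. The size of these steps depends on the scaling, with 0.63, 1.04 and 1.15 after quantile normalization and 1.24, 0.98 and 1.43 after scaling to the 75th percentile for SCN1, ROPGEF11 and ROPGEF12 in that order. For ROPGEF11 this step did not pass a test against a fold change of 1.2 (adjusted p = 0.166, limma). Below flowers, 0 of the 10 pairs among seedlings, siliques, ovules, pistils and leaves passed the test for ROPGEF11 (limma, 0 also at an unadjusted p under 0.05), and 1 did for ROPGEF12, siliques above pistils by 0.21 (adjusted p = 0.0417, limma), with both below detection.

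SCN1 was graded among the tissues. Flowers (1245 ± 4.95, SD, n = 2) and ovules (1245 ± 137) did not differ beyond their spread (adjusted p = 0.973, limma; 0.0278 with flowers higher after scaling to the 75th percentile), pistils followed with 1013 ± 7.16, then seedlings with 775 ± 46.2, siliques with 697 ± 11.4 and leaves with 588 ± 9.96. The step between pistils and seedlings passed the test (adjusted p = 0.00404, limma) but not without replicate 1 of seedlings (0.0503). The step between ovules and pistils passed (0.0201), but not after quantile normalization (0.525), nor after scaling to the 75th percentile (0.629), nor without replicate 1 of ovules (0.206) or replicates 1 or 2 of pistils (0.0535 and 0.0644). Seedlings and siliques (0.228) and siliques and leaves (0.0501) were not separated, although seedlings were above siliques after quantile normalization (0.0161) and after scaling to the 75th percentile (0.0130). The step between siliques and leaves turned to -0.06 after quantile normalization or scaling to the 75th percentile, while it passed without replicate 1 or 2 of root hairs (0.0248 each) or of ovules (0.0351 and 0.0350).

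Profiles like those of the 3 genes were sought among 6505 probe sets of 1 named gene whose sample type means spanned at least 2 on the log2 scale. Over the 8 means, ROPGEF11 and ROPGEF12 correlated at r = 0.988, SCN1 and ROPGEF11 at 0.952 and SCN1 and ROPGEF12 at 0.919, all of them led by the pollen value that the means share. Closest to SCN1 were AT1G05790, a lipase class 3 family protein (r = 0.995), the MAP kinase MPK17 (0.988), LSD1 (0.985), AT3G59350, a putative serine/threonine kinase (0.978), and RHF2A, a RING-H2 finger protein (0.978). Like SCN1, 4 of these 5 had means above detection in every sample type. MPK17 had 2417 in root hairs, 10900 in pollen and 1082 to 2341 in the other tissues apart from flowers, whereas AT3G59350 ranged down to 106. Closest to ROPGEF11 were ACA9, a calcium pump of the pollen plasma membrane (0.998), AT1G05020, an ENTH domain protein (0.996), AT5G01700, a putative protein phosphatase (0.996), the receptor-like kinase PERK12 (0.994) and SGP2, a GTP-binding protein (0.993). ROPGEF12 was most like Iqd4, a calmodulin-binding protein (0.999), AT5G01610 (0.997), AT5G36260, an aspartyl protease family protein (0.997), the profilin PRF4 (0.997) and again ACA9 (0.995). In all, 46 probe sets reached an r over 0.95 with SCN1, 92 with ROPGEF11 and 61 with ROPGEF12.

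**Figure D3:**
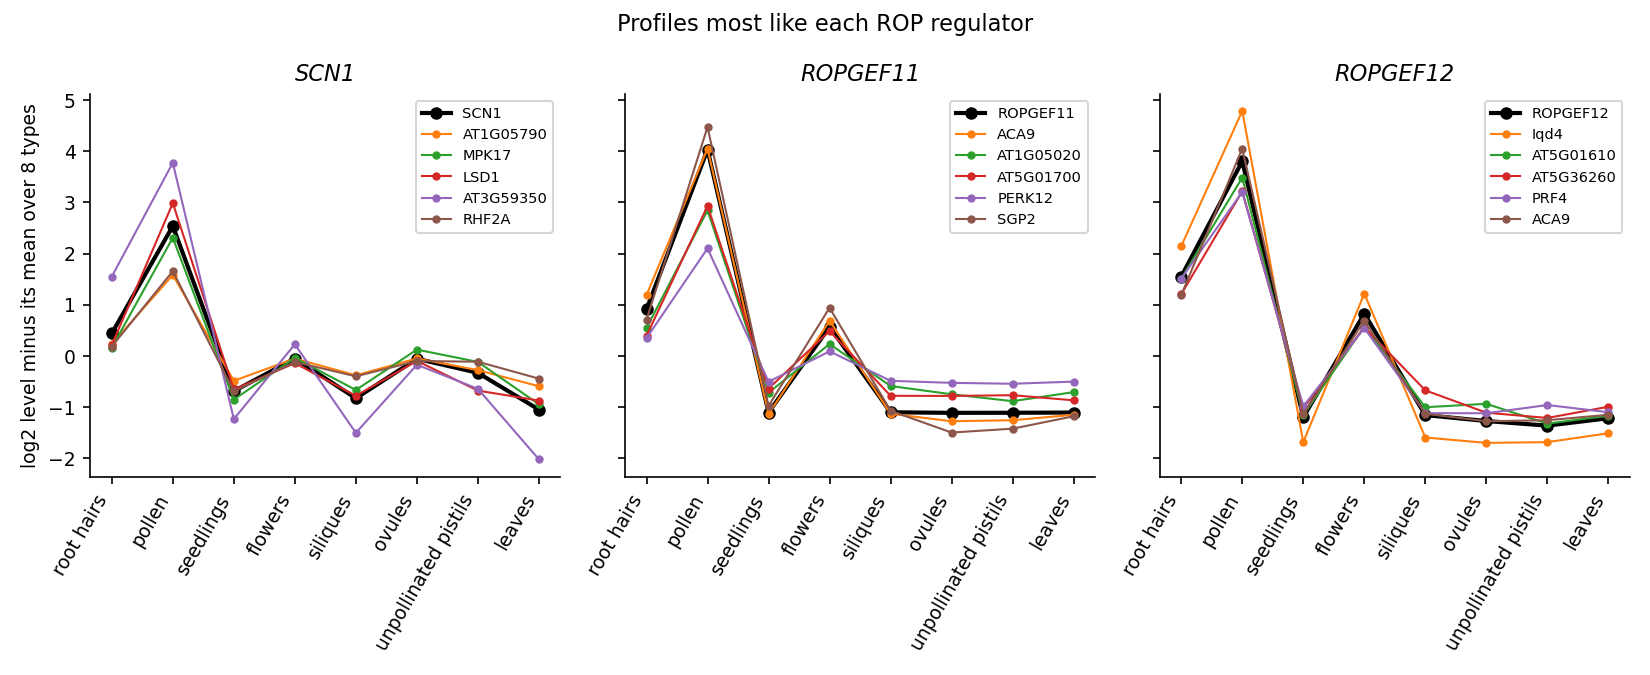
Mean log2 level over 2 arrays in each of 8 sample types, minus the mean of the 8, for each ROP regulator (thick black line) and the 5 probe sets most like it by Pearson's r. All lines peak in pollen, and those of the SCN1 panel differ from the other panels in keeping a graded level among the tissues.

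The other genes of ROP signalling were followed in 7 lists of 74 genes, of which 31 were measured. The rest had no probe set named for them alone in the annotation used, so they may still be on the array. In root hairs 12 of the 31 were higher than each of the 4 tissues, 6 lower and 13 neither, where 12.5% of all probe sets were higher and 51.5% lower. In pollen 16 were higher, 8 lower and 7 neither, beside 13.9% and 47.2% of all probe sets. Both comparisons use the same arrays of the 4 tissues. Some list genes, REN1 and AGC1.7 among them, also stand in the study's own lists from these arrays, so their calls are no independent evidence. Several had a probe set named only through the study's tables. Among these, RIC1 and AGC1.7 were called higher in both cell types, and ROPGEF14 and ICR1 lower in both. Entry to the 31 may thus have depended on levels on these arrays, and the share over all probe sets is not a like comparison. For genes named only that way, no p against the 4 tissues is given, and their differences are a description. Without SCN1, ROPGEF11 and ROPGEF12, 9 of 28 were higher in root hairs and 13 in pollen. The median log2 difference over the 31 genes was -0.01 in root hairs and 0.45 in pollen. The number in root hairs rests on the scaling, since 16 genes were higher after quantile normalization and 20 after scaling to the 75th percentile.

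SCN1 stood apart from the other genes of its list in root hairs. AT1G12070, annotated as a GDP-dissociation inhibitor, had an intensity of 21.7 in root hairs, 2314 in pollen and 27.3 to 33.8 among the 4 tissues. AT1G62450, which was listed with it, had 34.4 in root hairs, 1638 in pollen and 41.9 to 43.1 among the tissues. All 3 rose in pollen, with log2 differences of 3.10 for SCN1, 4.53 for AT1G12070 and 3.90 for AT1G62450, and SCN1 alone was called higher in root hairs. After scaling to the 75th percentile AT1G62450 was also called higher in root hairs, at levels below detection. Root hairs minus pollen gave log2 differences of -4.67 for AT1G12070 and -4.01 for AT1G62450, beside -2.10 for SCN1.

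Among the 5 measured RopGEFs, ROPGEF11 and ROPGEF12 rose in both cell types and a pair of others fell in both. Of all 22746 probe sets, 729 were higher in both cell types and 7269 lower in both, so a fall in both was common. ROPGEF14 was at 28.5 in root hairs, 41.1 in pollen and 243 to 544 among the 4 tissues (log2 differences -2.06 and -1.89). SPK1 is a DOCK-type exchange factor that also acts on ROPs. It was at 46.7 in root hairs, 41.1 in pollen and 392 to 1073 among the tissues (-2.74 and -2.80, adjusted p = 1.07e-13 and 5.15e-14, limma). ROPGEF2 was below detection in all 8 sample types.

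Of 11 listed ROP GTPases, only ROP2 and ROP5 had a probe set named for them here, and ROP1 was among those without. ROP2, which acts in root hair initiation, had 2494 and 2750 on the root hair arrays and 114 and 352 on the pollen arrays, against means of 1246 to 2126 in the 4 tissues. It was lower in pollen (log2 difference -2.73) although its pollen replicates lay far apart. In root hairs ROP2 was called higher only after scaling to the 75th percentile. ROP5, a ROP of pollen, was higher in pollen, where it had 1989, against 1043 to 1442 (0.69). In root hairs it had 1377 and was called higher only after quantile normalization or scaling to the 75th percentile.

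Of the 7 genes listed with the RopGAPs, 3 rose in root hairs and 2 in pollen, beside 12.5% and 13.9% of all probe sets. Of these, REN1 in root hairs and AT2G27440 in pollen were below detection. AT1G08340, a putative Rac GTPase activating protein, was higher in root hairs, where it had 828, while the 4 tissues had 50.3 to 526 with siliques highest and pollen had 58.6. AT2G27440 had 510 in root hairs, 137 in pollen and 67.2 to 106 among the tissues. It is annotated as a putative Rac GTPase activating protein in the study's tables and as a transcribed pseudogene by RefSeq, and its excess in pollen did not pass a test against a fold change of 1.2. REN1, the RhoGAP known for restricting active ROP1 in pollen tubes, had 163 in root hairs, 782 in pollen and 57.9 to 82.2 among the tissues (log2 differences 0.69 and 2.55). AT5G12150 fell in both cell types, and AT4G03100 fell in root hairs. AT5G22400 and AT3G11490 fell in pollen, calls that were lost after scaling to the 75th percentile. For AT5G22400 the call was also lost after quantile normalization, and both scalings made it higher in root hairs.

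The effector RIC1, a ROP-interactive CRIB motif protein, rose in both cell types. It was at 375 in root hairs, 7186 in pollen and 98.9 to 112 among the 4 tissues (log2 differences 1.32 and 5.34). ICR1, a scaffold that binds active ROPs, was at 50.8 in root hairs, 48.3 in pollen and 341 to 717 among the tissues (-2.18 and -2.21).

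The kinases listed as acting upstream of ROPs were mostly those of pollen. PRK4, a pollen receptor kinase that is also 1 of the pollen markers, ANX1 and ANX2, receptor kinases that keep the pollen tube intact, BUPS1 (AT4G39110) and AT2G21480 reached 3293 to 12370 in pollen, against 19.1 to 73.1 in the 4 tissues. In root hairs these 5 lay between 21.1 and 52.2, below detection, where PRK4 was called higher after quantile normalization and PRK4, ANX2 and AT2G21480 after scaling to the 75th percentile. AGC1.5, an AGC kinase of pollen, had 142 in root hairs, 2392 in pollen and 156 to 216 among the tissues, and was called higher in root hairs after both of these scalings. AGC1.7 rose in both cell types, with 454 in root hairs, 347 in pollen and 58.3 to 83.3 among the tissues (log2 differences 1.90 and 1.58). FER, the receptor kinase FERONIA, which acts with ROP signalling in root hairs, had 4626 in root hairs, 35.5 in pollen and 911 to 2140 among the tissues (1.66 and -3.79, adjusted p = 4.35e-10 and 1.29e-14, limma).

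NADPH oxidases, which make the reactive oxygen that ROPs promote at the tip, had 3 higher calls among 4 measured genes in root hairs, beside 12.5% of all probe sets. RBOHE had 1345 in root hairs, 30.5 in pollen and 18.8 to 297 among the 4 tissues (log2 difference 3.38 in root hairs, adjusted p = 6.83e-13, limma). AT4G25090 had 1188 in root hairs, 26.6 in pollen and 19.1 to 70.0 among the tissues (3.48). AT4G11230 had 237 in root hairs, 16.5 in pollen and 12.0 to 24.6 among the tissues (1.81). Its root hair arrays were at 274 and 200, the second of them below detection. For these 3 genes root hairs exceeded pollen by 1.79 to 3.78 on the log2 scale (largest adjusted p = 2.28e-11, limma). RBOHB was below detection in all 8 sample types. The list holds 10 NADPH oxidases, and RBOHC, RBOHH and RBOHJ were among those not measured. The 4 measured genes therefore do not stand for the family in either cell type.

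**Figure D4:**
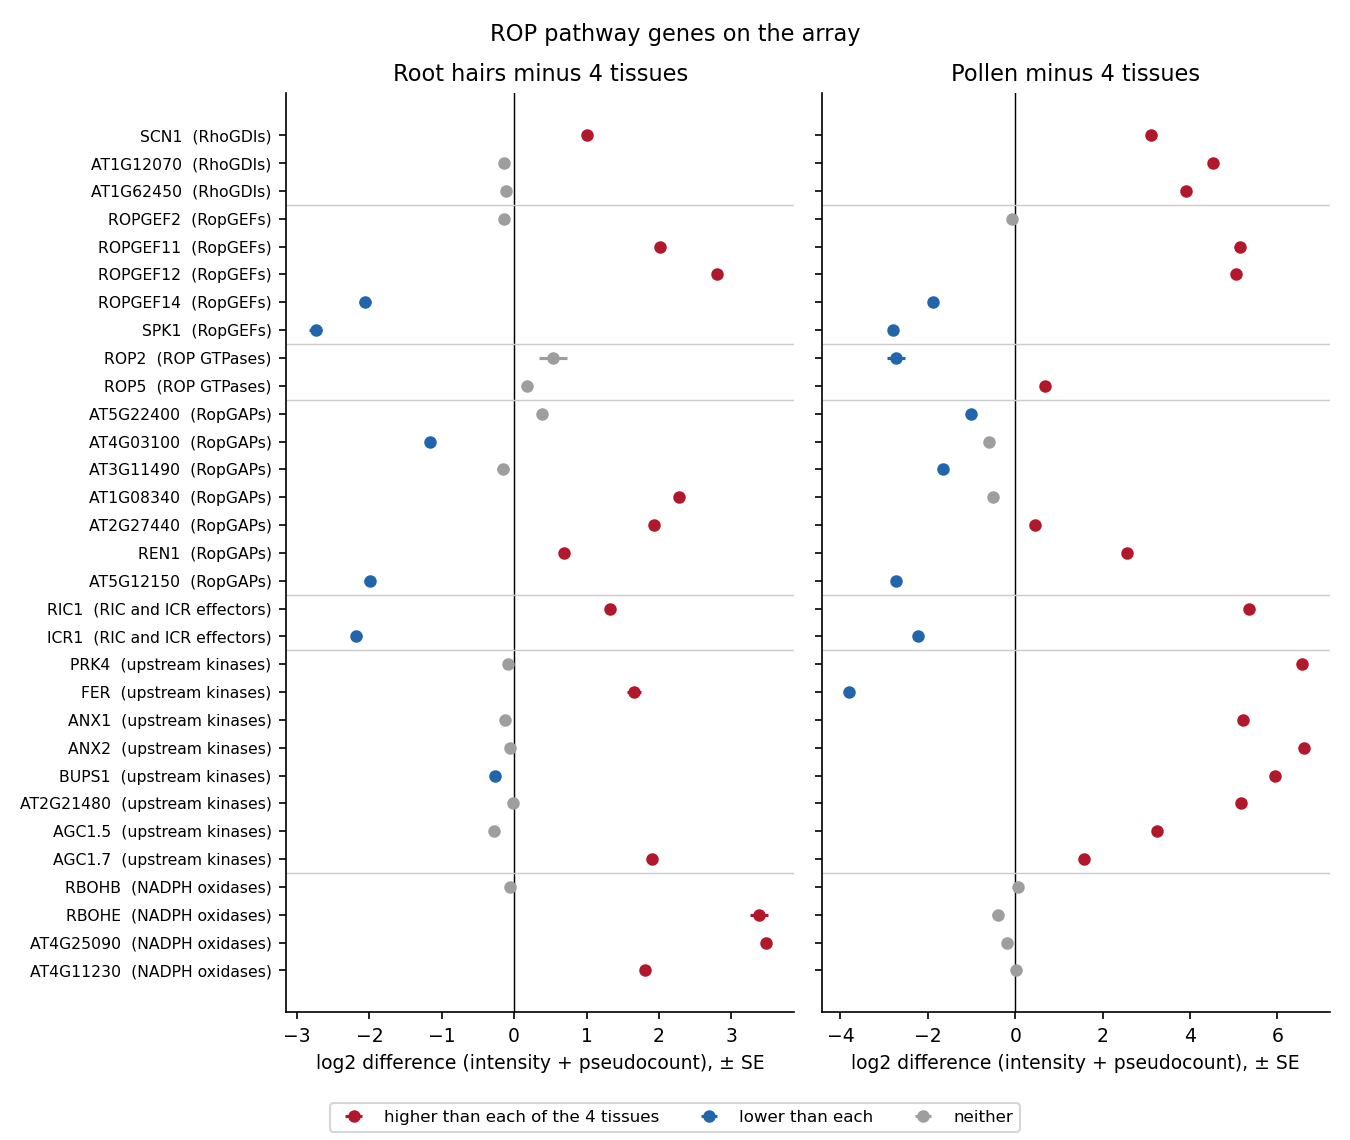
Log2 difference (intensity plus pseudocount, ± SE) of 31 ROP pathway genes from the mean of the 4 tissues, in root hairs (left) and pollen (right), grouped by role, with genes called higher than each of the 4 tissues in red, lower in blue and neither in grey. SCN1, ROPGEF11, ROPGEF12, REN1, RIC1, AGC1.7 and AT2G27440 are red on both sides, the other RhoGDIs and most kinases only for pollen, and RBOHE, AT4G25090, AT4G11230, AT1G08340 and FER only for root hairs.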

How the data were processed

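Intensity values of 16 ATH1 arrays were used as deposited by the authors, who computed model-based expression with dChip after image analysis and detection calls with GCOS 1.4 and MAS5. No aligned genome build applies. From these, log2(intensity + 71.9) was computed, the pseudocount being the median over arrays of each array's 20th percentile. The 22810 probe sets without the 64 controls left 22746, which were tested with limma 3.58.1 in R 4.3.3, fitting a mean for every sample type (8 residual degrees of freedom) with a mean-variance trend and Benjamini-Hochberg adjustment in each contrast. A gene was called higher or lower at an adjusted p under 0.05 against each of leaves, unpollinated pistils, ovules and siliques. ROPGEF11 and ROPGEF12 were named through the paper's tables, SCN1 through the platform annotation, and 15570 probe sets have 1 gene. Named genes were the 3 members, markers, list genes called higher, of the rest the 2 with the largest difference, and the 5 profiles most like each member. Further list genes were named after their values were seen. Members and lists were chosen with earlier results of these data known. The fit was tested on simulated data. Figures used Python 3.11.15 and matplotlib 3.10.9. Protein and promoter sequences were not used here. Alternatives were other normalizations, pseudocounts, filters, tissues and detection levels, no trend, fewer arrays, a replicate block and leaving out each array. With 2 arrays per sample type, their number limits the precision.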

Additional observations from a re-analysis of the deposited data

Results flagged for a closer look

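A pair of receptor kinases upstream of ROPs was called in opposite directions in the 2 cell types, which is 6.45% of the 31 list genes and no more than the 7.42% of all probe sets that were. FER was higher than each of the 4 tissues in root hairs (4463 and 4790) and lower in pollen (34.1 and 36.8), against means of 911 to 2140 in the 4 tissues, and root hairs minus pollen was 5.45 on the log2 scale (adjusted p = 6.06e-15, limma). BUPS1 was lower in root hairs (27.0 and 26.9) and higher in pollen (6940 and 7483), against means of 44.1 to 53.8, and root hairs minus pollen was -6.20 (adjusted p = 2.62e-18, limma), but its root hair and tissue levels are below detection, and its root hair call was lost after quantile normalization and scaling to the 75th percentile, with the larger pseudocount and against a fold change of 1.2.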

How the results depend on the processing

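All 15 log2 differences of SCN1, ROPGEF11 and ROPGEF12 kept their direction and their side of the threshold in all 387 alternatives, with the largest adjusted p at 6.36e-05 (limma). Their size moved with the pseudocount: that of ROPGEF11 between root hairs and seedlings lay between 0.91 and 4.09. That of SCN1 in root hairs lay between 0.63, against pistils and ovules alone, and 1.92. Leaving out each array gave 0.89 to 1.12 for SCN1 in root hairs. ROPGEF11 was above detection on 4 arrays, on 6 at 2 times and on 2 at 5 times the pseudocount. The number of ROP pathway genes higher in root hairs was 12, and 20 after scaling to the 75th percentile, which moved the median of all probe sets to 0.03 in root hairs and 0.60 in pollen (quantile normalization 0.02 and 0.05). Over all probe sets, 2839 were higher and 11721 lower in root hairs, against 6584 and 4611 after quantile normalization and 6752 and 4856 after scaling. In pollen 3168 were higher and 10741 lower, against 8227 and 6104 and against 11510 and 3858. There, 1819 were higher among probe sets above detection and 1914 against a fold change of 1.2. With the replicate number as a block no call of these results changed, and the adjusted p of SCN1 in root hairs was 1.05e-08. Replicate numbers share only a number, since same-numbered arrays deviated together at r over 0.1 in 2 of 28 pairs of sample types (r -0.37 to 0.19).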
